A study of Mus musculus with 19 samples.

Results

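The genes described here are the 7 mouse globins *Hba-a1*, *Hba-a2*, *Hbb-bs*, *Hbb-bt*, *Hba-x*, *Hbb-y* and *Hbb-bh1*, together with *Alas2*, which makes heme in red cells. The 8 genes were chosen by symbol, for their place in red blood cells, and were matched to Ensembl identifiers among the 41388 genes of the count files. RNA was sequenced from 16 samples, and the comparison throughout is between *Wiz*+/+ animals and *Wiz* MommeD30/+ heterozygotes. MommeD30 is a null allele of *Wiz*, made by ENU mutagenesis, and *Wiz* encodes a zinc finger protein of the G9a/GLP histone methyltransferase complex. Whole brains came from male embryos at E13.5 (3 *Wiz*+/+ and 3 *Wiz* MommeD30/+) and from female embryos at E13.5 (2 and 2), and cerebellums came from adult males of 56 days (3 and 3). The strain background was FVB. The MommeD30 line was kept with *Line3*, an FVB/NJ strain that is homozygous for a multicopy GFP transgene driven by human α-globin promoter and enhancer elements, so that both genotypes may carry erythroid regulatory sequence of human origin. Embryos came from matings between heterozygotes. The replicates of a group are numbered as separate samples, and p-values measure the spread between them.

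Haemoglobin is made of α-type and β-type chains, and mice use different genes for them at different ages. The first red cells arise in the yolk sac, circulate while still nucleated and express the embryonic genes *Hba-x* (zeta), *Hbb-y* (epsilon-y) and *Hbb-bh1* (beta-h1), along with adult genes as they mature. Red cells of the fetal liver and later of the bone marrow use the adult genes. Neither kind of cell belongs to neural tissue, so globin RNA in a brain sample is commonly read as a measure of the blood left in the vessels, although some neurons and glia are known to express adult globins at low levels. In bulk RNA, fewer red cells and less RNA per red cell cannot be told apart.

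The α-type genes lie on chromosome 11 of GRCm38 (mm10), on the plus strand, with *Hba-x* at chr11:32276400-32278116, *Hba-a1* at chr11:32283511-32284465 and *Hba-a2* at chr11:32296489-32297298. The β-type genes lie on the minus strand of chromosome 7, with *Hbb-bt* at chr7:103812524-103813996, *Hbb-bs* at chr7:103826534-103828096, *Hbb-bh1* at chr7:103841637-103843164 and *Hbb-y* at chr7:103851749-103853216. *Alas2*, at chrX:150547375-150570638 on the plus strand, encodes the erythroid form of the enzyme that starts heme synthesis. The adult genes come in near-identical pairs. The coding sequences of *Hba-a1* and *Hba-a2* were identical at 428 of 429 positions, and those of *Hbb-bs* and *Hbb-bt* at 443 of 444. *Hbb-bs* and *Hbb-y* shared 74.3% of their coding positions, and *Hba-a1* and *Hba-x* shared 62.0%. Of the stretches of 100 bases (the read length) in its transcripts, 43.5% of those of *Hba-a1*, 25.5% of *Hba-a2*, 46.0% of *Hbb-bs* and 45.2% of *Hbb-bt* occurred in no other gene of the 8, while for the embryonic globins and *Alas2* it was 100%. Reads from the shared stretches cannot be assigned to a single gene, so the split within each adult pair is uncertain and adult levels may be understated beside embryonic ones.

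The sequences before the start sites of a few of these genes are shown because the adult genes and *Alas2* shifted together in the cerebellum and because *Hbb-y* was the most abundant globin of the embryo. They were read from RefSeq's promoter table for GRCm38.p6, which held 7 of the 8 genes, and bases inside an annotated exon were left out. Capitals mark 4 motifs on either strand. CACCC is the core of the site of erythroid Krüppel-like factors, and GATAA is that of GATA factors. CCAAT is bound by the CCAAT-binding factors, and TATAA is the core of the TATA box. The motifs were chosen after the sequences had been seen.
*Hba-a2*, chr11:32296372-32296488, plus strand: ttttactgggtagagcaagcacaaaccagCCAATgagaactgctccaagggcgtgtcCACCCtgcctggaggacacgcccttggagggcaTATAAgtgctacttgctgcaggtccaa
*Hbb-bs*, chr7:103827929-103828011, minus strand: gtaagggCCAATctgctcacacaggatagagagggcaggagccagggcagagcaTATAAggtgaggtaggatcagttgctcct
*Hbb-y*, chr7:103853217-103853327, minus strand: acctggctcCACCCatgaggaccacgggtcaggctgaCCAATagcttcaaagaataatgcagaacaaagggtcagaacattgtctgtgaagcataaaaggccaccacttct
*Alas2*, chrX:150547297-150547374, plus strand: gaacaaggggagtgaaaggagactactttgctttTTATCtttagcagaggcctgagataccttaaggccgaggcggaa
In the 120 bases before the start site, all 7 genes held CACCC or its complement, which 31.7% of all 32851 promoters of the table held in the same window. CCAAT was found in the 4 adult globins and *Hbb-y* (21.3% of all promoters) and TATAA in the 4 adult globins and *Hba-x* (11.8%). GATAA was found in *Hba-x* and *Alas2* (10.5%). *Hba-a1* and *Hba-a2* shared an unbroken run of 247 of the 250 bases before the start, and *Hba-a1* is not printed because its window lies inside an annotated exon. The CACCC matches of *Hbb-bs* and *Alas2* lie in bases left out for the same reason, so they are not in the printed sequences.

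Between 16386029 and 50459755 reads per sample were counted on genes. *Wiz* itself had 182 to 200 CPM (counts per 1000000 reads counted on genes) in male *Wiz*+/+ brains against 118 to 126 in male *Wiz* MommeD30/+ brains, 186 to 195 against 127 to 130 in females, and 95.4 to 95.5 against 66.6 to 67.7 in cerebellum, so no sample contradicted its label. Summed over 7 genes each, markers of embryonic brain had 4147 to 4325 CPM in the brains against 260.3 to 307.7 in the cerebellums, and markers of cerebellum 142 to 150.4 against 4010.0 to 4108.

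All 7 globins together had 713 to 1391 CPM in the 10 E13.5 brains and 138 to 458 CPM in the 6 cerebellums, with no overlap. Expressed as a share of all counts, globins took 0.0713% to 0.139% in brain and 0.0138% to 0.0458% in cerebellum. The means were 871 ± 152 (SD, n = 3) CPM in male *Wiz*+/+ brains, 1020 ± 141 (n = 3) in male *Wiz* MommeD30/+ brains, 1368 ± 33.1 (n = 2) in female *Wiz*+/+ brains, 1262 ± 26.2 (n = 2) in female *Wiz* MommeD30/+ brains, 185 ± 41.9 (n = 3) in *Wiz*+/+ cerebellums and 327 ± 114 (n = 3) in *Wiz* MommeD30/+ cerebellums. The 4 adult globins alone had 248 to 432 CPM in brain, a range that overlaps the cerebellums, and the 3 embryonic globins made up the rest, at 463 to 978 CPM.

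**Figure D1:**
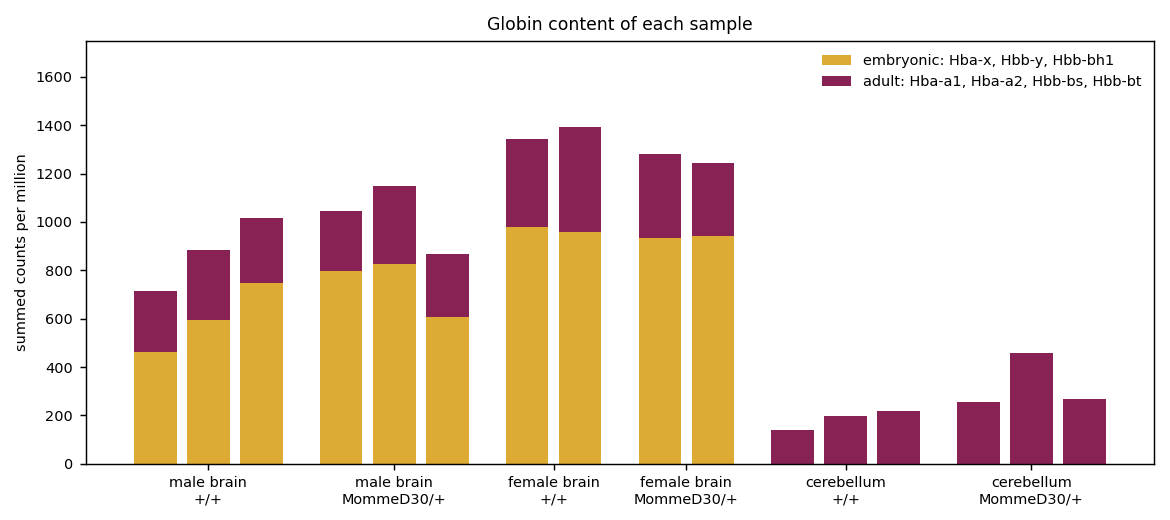
Summed CPM of the 3 embryonic globins (yellow) and the 4 adult globins (purple), stacked, with 1 bar per sample and samples grouped by tissue, sex and *Wiz* genotype. The embryonic part fills most of each E13.5 brain bar (463 to 978 CPM) and is 0 in all 6 cerebellums, where the second *Wiz* MommeD30/+ sample is the highest at 458 CPM.

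Embryonic globins were abundant in every E13.5 brain and had no count in any cerebellum. *Hbb-y*, the main β-type chain of the maturing yolk sac red cell, had 428, 539 and 687 CPM in the male *Wiz*+/+ brains and 743, 762 and 567 CPM in the male *Wiz* MommeD30/+ brains. In females it had 896 and 883 CPM (*Wiz*+/+) and 859 and 869.6 CPM (*Wiz* MommeD30/+). Every female brain thus stood above every male brain, while the male genotypes overlapped. *Hba-x*, the embryonic α-type chain, had 32.0, 51.3 and 55.3 CPM in male *Wiz*+/+ brains, 47.0, 56.2 and 37.3 in male *Wiz* MommeD30/+ brains, 73.6 and 68.3 in female *Wiz*+/+ brains and 68.9 and 65.8 in female *Wiz* MommeD30/+ brains. *Hbb-bh1*, the β-type chain that the youngest yolk sac cells use, was the least abundant of the 3, with 3.11 to 8.76 CPM over the 10 brains. The 6 cerebellum libraries held 179543191 counts together and none on these 3 genes, which allows up to 0.0167 CPM of each (3 counts in all, covering counting error only). Against the same limit over the 3 *Wiz*+/+ cerebellums, the pooled male *Wiz*+/+ brains were at least 16168-fold higher for *Hbb-y*, at least 1304-fold higher for *Hba-x* and at least 145-fold higher for *Hbb-bh1*.

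Adult globins were present at both ages. *Hba-a1*, an adult α-type gene, had 146, 190 and 172 CPM in male *Wiz*+/+ brains and 66.5, 97.0 and 107 CPM in *Wiz*+/+ cerebellums. *Hbb-bs*, an adult β-type gene, had 86.8, 78.2 and 78.0 CPM in the same brains and 66.3, 93.0 and 103 CPM in the same cerebellums, with overlap. *Hbb-bt*, its neighbour, had 13.9, 15.7 and 13.3 CPM in brain and 4.74, 7.39 and 7.04 CPM in cerebellum. *Hba-a2* was the lowest adult globin in both tissues, with 2.66, 3.23 and 2.82 CPM in brain and 0.687, 1.05 and 1.27 CPM in cerebellum. *Alas2* had 7.95, 8.85 and 9.37 CPM in brain and 6.77, 7.02 and 8.58 CPM in cerebellum, again with overlap.

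**Figure D2:**
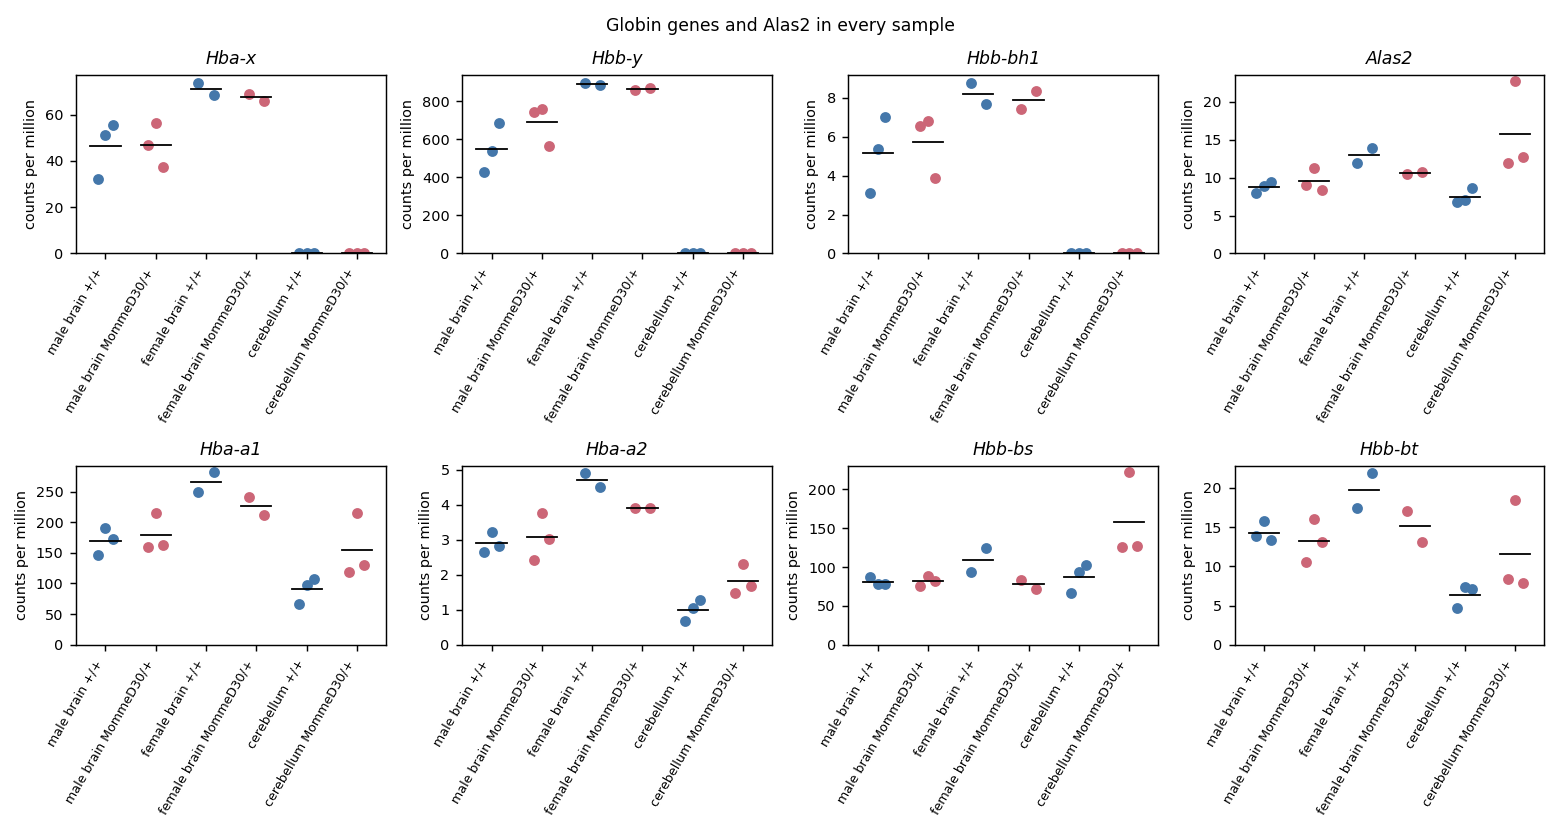
CPM of each of the 8 genes in every sample (points), with the group mean (line), *Wiz*+/+ in blue and *Wiz* MommeD30/+ in red. The 3 embryonic globins are at 0 in all cerebellums, and the second *Wiz* MommeD30/+ cerebellum is the highest cerebellum for *Alas2* and the 4 adult globins.

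*Wiz*+/+ cerebellum was compared with *Wiz*+/+ male E13.5 brain by edgeR's quasi-likelihood test, adjusted over all genes tested by the Benjamini-Hochberg method. A gene was called when its adjusted p was at most 0.05 and its fold change was under 0.7 or over 1.3. Brain region and age differ together here and cannot be told apart. Of the 8 genes, 6 were called, each lower in the adult cerebellum. Over all 16840 genes tested, 69.3% were called and 32.9% were called lower. The 3 embryonic globins, with no count in any cerebellum, entered the test through their brain counts alone. Their calls restate that absence and are not read as a further result. The other called genes were *Hba-a2* (log2 fold change -1.29, SE 0.20, adjusted p = 1.8e-05), *Hbb-bt* (-0.93, SE 0.12, adjusted p = 4.8e-06) and *Hba-a1* (-0.69, SE 0.13, adjusted p = 0.00012). *Hbb-bs* stood on the other side, at 0.32 (SE 0.11, adjusted p = 0.016), under the fold threshold, and *Alas2* at -0.00 (SE 0.10, adjusted p = 0.981). The TMM scaling of this fit lies 0.21 on the log2 scale above scaling by total counts. With total counts, a scaling added after the values had been seen, *Hbb-bs* was at 0.11 (adjusted p = 0.36) and *Alas2* at -0.21 (adjusted p = 0.068), and the same number of genes, 6, were called.

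Both members of each adult pair were counted, in different proportions by tissue. *Hbb-bt* took 12.1% to 17.0% of the adult β-type counts in the 10 brains and 5.85% to 7.64% in the 6 cerebellums, with no overlap. *Hba-a2* took 1.50% to 1.93% of the adult α-type counts in brain and 1.02% to 1.27% in cerebellum, with no overlap either. These shares rest on the part of each transcript that differs from its partner, and the same limit holds in both tissues.

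Levels of different genes were compared per kilobase of annotated exon. Over the 10 brains, *Hbb-y* was the highest at 1143 ± 260.2 (SD) CPM per kb, followed by *Hba-a1* (249.9 ± 54.7), *Hbb-bs* (112 ± 19.3), *Hba-x* (59.3 ± 14.9), *Hbb-bt* (21.6 ± 4.55) and *Hbb-bh1* (10.6 ± 3.02). *Hba-a2* (5.27 ± 1.23) and *Alas2* (4.24 ± 0.77) came last. Ranges over the brains overlapped between these neighbours, but within each brain *Hbb-bh1* lay above *Hba-a2*. *Hba-a2* lay above *Alas2* in every brain except the first male *Wiz* MommeD30/+ brain (3.64 against 3.75). In the 6 cerebellums, *Hbb-bs* (160.0 ± 69.9 CPM per kb) was the highest, slightly above *Hba-a1* (151 ± 62.0) in every sample. *Hbb-bt* (12.8 ± 6.80), *Alas2* (4.84 ± 2.50) and *Hba-a2* (2.12 ± 0.84) followed. The order of some genes depends on the scale. Per 1000 stretches of 100 bases unique to a gene, *Hba-a1* (mean 469.7 CPM) lay above *Hbb-bs* (mean 435.8) in every cerebellum. Per 1000 stretches of 100 bases unique to a gene, *Hba-a2* had 21.0 to 42.3 CPM in the brains, above *Hbb-bh1* (6.05 to 17.0) and *Alas2* (3.91 to 6.85), and in the cerebellums its mean of 12.2 lay above the 5.72 of *Alas2*.

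On this scale, embryonic genes accounted for 69.3% to 79.7% of globin RNA in the E13.5 brains. The share differed sharply between chain types. Among β-type globins 83.7% to 92.5% was embryonic, nearly all of it *Hbb-y*, and among α-type globins 15.6% to 21.4%, all of it *Hba-x*. α-type RNA per kb was 0.192 to 0.298 of β-type RNA in the brains and 0.844 to 0.930 in the cerebellums. Since part of each adult gene yields no reads of its own, the shares were also computed per 100-base stretch unique to a gene, which gave 47.3% to 60.9% embryonic over all globins, 69.2% to 84.5% among β-type and 6.15% to 8.80% among α-type globins. On that scale α-type RNA was 0.401 to 0.604 of β-type RNA in the brains and 0.980 to 1.08 in the cerebellums, so both α-type values depend on how the near-identical adult genes are scaled. The ratio of *Hbb-y* to *Hbb-bs* counts ran from 4.93 in the first male *Wiz*+/+ brain to 12.1 in the second female *Wiz* MommeD30/+ brain.

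**Figure D3:**
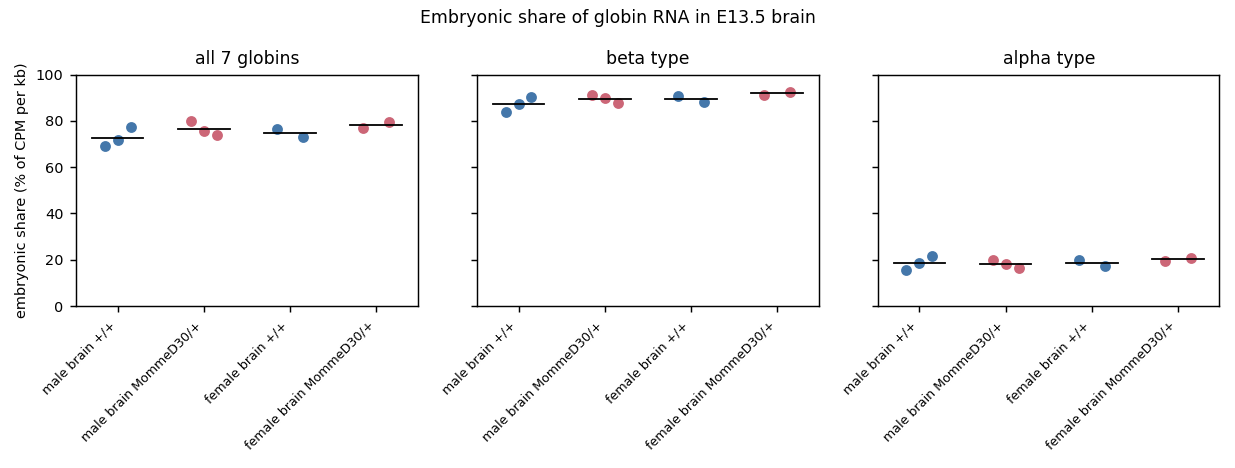
Share of globin CPM per kb that came from embryonic genes in each E13.5 brain (points, with the group mean as a line), for all 7 globins, the β-type genes and the α-type genes, *Wiz*+/+ in blue and *Wiz* MommeD30/+ in red. β-type RNA is 83.7% to 92.5% embryonic and α-type RNA 15.6% to 21.4%, and the genotypes overlap within each sex except for the total and the β-type share in females.

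By genotype, the embryonic share was 72.8% ± 4.20 (SD, n = 3) in male *Wiz*+/+ brains and 76.5% ± 2.92 (n = 3) in male *Wiz* MommeD30/+ brains, with overlap. In females it was 74.8% ± 2.47 (n = 2) and 78.1% ± 1.82 (n = 2), where the lower *Wiz* MommeD30/+ value, 76.8%, lay just above the higher *Wiz*+/+ value, 76.5%. A summed share carries no test here.

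In male E13.5 brain, none of the 8 genes was called between genotypes by edgeR's quasi-likelihood test or by DESeq2's Wald test, against 0.184% of all genes tested by edgeR. At an unadjusted p under 0.05, edgeR gave 1 of the 8, beside 8.45% of all genes, and DESeq2 gave 0. That 1 gene was *Hbb-y* (log2 fold change 0.32, SE 0.14, unadjusted p = 0.041, adjusted p = 0.57), for which *Wiz*+/+ had 551 ± 130 (SD, n = 3) CPM and *Wiz* MommeD30/+ 691 ± 108 (n = 3). The other 7 were *Hbb-bt* at -0.10, *Hbb-bs* at 0.01, *Hba-x* at 0.05, *Hba-a1* at 0.08, *Hba-a2* at 0.11, *Alas2* at 0.14 and *Hbb-bh1* at 0.22, and the genotypes overlapped for all 8. The summed globin switching regulators *Bcl11a*, *Zbtb7a*, *Sox6* and *Myb* did not overlap (391 to 406 CPM in *Wiz*+/+, 347 to 387 in *Wiz* MommeD30/+). Nor did 7 further globin superfamily genes (11.1 to 11.5 and 9.79 to 10.5) or cerebellum markers (142 to 144.7 and 145.0 to 150.4). The part of these sums in the globin values was not tested.

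In female E13.5 brain, all 8 log2 fold changes were below 0 and none was called, against 0.111% of all genes. At an unadjusted p under 0.05 there were 4 of the 8 by edgeR, beside 6.4% of all genes, and 3 by DESeq2, which called none either. *Hbb-bs* had 93.9 and 124 CPM in *Wiz*+/+ and 83.6 and 71.6 CPM in *Wiz* MommeD30/+ brains (log2 fold change -0.49, SE 0.13, unadjusted p = 0.0057, adjusted p = 0.773). *Alas2* had 11.98 and 13.9 CPM against 10.5 and 10.7 CPM (-0.29, SE 0.11, adjusted p = 0.773). *Hba-a1* had 249.8 and 281 CPM against 240.5 and 211 CPM (-0.24, SE 0.08, adjusted p = 0.773). For 6 genes both *Wiz* MommeD30/+ brains lay below both *Wiz*+/+ brains, a pattern that 17.3% of all genes showed with 2 samples a side. *Hbb-bt* was at -0.39 (SE 0.15), *Hba-a2* at -0.27 (SE 0.14), *Hba-x* at -0.08 (SE 0.06), *Hbb-bh1* at -0.06 (SE 0.13) and *Hbb-y* at -0.04 (SE 0.05). In the same brains platelet markers had 15.8 to 16.4 CPM in *Wiz*+/+ and 14.7 to 14.8 in *Wiz* MommeD30/+, microglia and macrophage markers 57.7 to 58.8 and 52.3 to 55.2, endothelial markers 334 to 344 and 310.0 to 333, and neutrophil markers 0.505 to 1.39 and 3.16 to 4.10, none with overlap, and their part in the result was not tested. Without the first *Wiz*+/+ female brain, *Hbb-bs* had a log2 fold change of -0.68. That fit leaves the genotype with 1 sample, so no call is read from it.

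Over all 10 brains with sex as a covariate, none of the 8 was called by edgeR or DESeq2, and none had an unadjusted p under 0.05 by either. Of all genes, edgeR called 0.346% and gave 11.8% an unadjusted p under 0.05. The log2 fold changes lay between -0.23 (*Hbb-bt*, SE 0.12, adjusted p = 0.46) and 0.17 (*Hbb-y*, SE 0.11, adjusted p = 0.58), with *Hbb-bs* at -0.20, *Hba-a2* at -0.07, *Hba-a1* and *Alas2* at -0.05, *Hba-x* at -0.01 and *Hbb-bh1* at 0.08. The difference in genotype effect between the sexes was tested with a product term. No gene at all passed at an adjusted p of 0.05 by edgeR (0% of 17620 genes, with 3.98% at an unadjusted p under 0.05), and of the 8, 2 had an unadjusted p under 0.05 with either tool, *Hbb-bs* (-0.50, SE 0.15, adjusted p = 0.985) and *Alas2* (-0.42, SE 0.17, adjusted p = 0.985).

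In adult cerebellum, the adult globins and *Alas2* were higher in *Wiz* MommeD30/+ mice. *Hba-a1* had 66.5, 97.0 and 107 CPM in *Wiz*+/+ and 119, 215 and 131 CPM in *Wiz* MommeD30/+ cerebellums, a log2 fold change of 0.78 (SE 0.17, adjusted p = 0.013). *Hbb-bs* had 66.3, 93.0 and 103 CPM against 126, 222 and 127 CPM (0.86, SE 0.17, adjusted p = 0.0077). *Alas2* had 6.77, 7.02 and 8.58 CPM against 11.9, 22.8 and 12.7 CPM (1.08, SE 0.18, adjusted p = 0.0032). In all 3 genes the second *Wiz* MommeD30/+ cerebellum was above the other 2 of its genotype, and those 2 still lay above every *Wiz*+/+ cerebellum.

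*Hba-a2* had 0.687, 1.05 and 1.27 CPM against 1.48, 2.31 and 1.69 CPM (0.87, SE 0.23, adjusted p = 0.037). *Hbb-bt* had 4.74, 7.39 and 7.04 CPM against 8.39, 18.4 and 7.88 CPM (0.85, SE 0.24) and missed the threshold at an adjusted p of 0.051. Thus 4 of the 5 genes that passed the filter on low counts were called, where 0.832% of all 15979 genes were called and 0.532% were called higher. The genotypes did not overlap for any of the 5, which was also so, in the higher direction, for 11.7% of all genes. The 3 embryonic globins did not pass the filter, having no counts. Summed over the adult globins, the *Wiz*+/+ cerebellums had 138, 198 and 219 CPM and the *Wiz* MommeD30/+ cerebellums 254, 458 and 267 CPM.

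**Figure D4:**
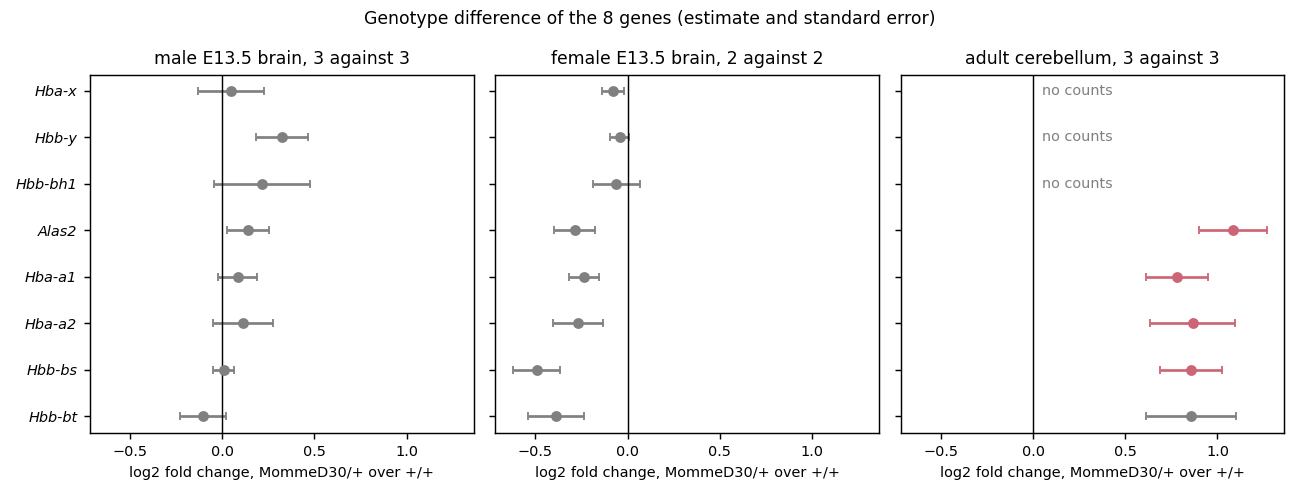
Log2 fold change of *Wiz* MommeD30/+ over *Wiz*+/+ (points) with its standard error (bars) for each gene in male E13.5 brain, female E13.5 brain and adult cerebellum, with called genes in red and the others in grey. The 5 cerebellum estimates lie between 0.78 and 1.08, those of female brain between -0.49 and -0.04 and those of male brain between -0.10 and 0.32.

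The cerebellum calls depended on the test and on single libraries. DESeq2's Wald test gave nearly the same fold changes and called 1 gene, *Alas2* (log2 fold change 1.09, adjusted p = 0.025), while *Hbb-bs* (adjusted p = 0.14) and *Hba-a1* (adjusted p = 0.21) were not called and *Hba-a2* received no adjusted p. Without the second *Wiz* MommeD30/+ cerebellum, edgeR called 3 of the 5, with smaller fold changes for *Alas2* (0.73, adjusted p = 0.00032), *Hbb-bs* (0.53, adjusted p = 0.0066) and *Hba-a1* (0.47, adjusted p = 0.024). Without the first *Wiz*+/+ cerebellum, the lowest in globins, it called 2, *Alas2* (1.02, adjusted p = 0.018) and *Hbb-bs* (0.69, adjusted p = 0.041). *Hba-a2* was lost whichever of the 6 samples was left out, with adjusted p from 0.055 to 0.15, and *Hbb-bt* was called without the second *Wiz*+/+ or the third *Wiz* MommeD30/+ cerebellum.

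The ratio of *Alas2* to adult globins was computed per sample. *Alas2* had 49.0, 35.4 and 39.2 counts per 1000 adult globin counts in *Wiz*+/+ cerebellums and 46.9, 49.8 and 47.5 in *Wiz* MommeD30/+ cerebellums. The overlap between genotypes rests on the first *Wiz*+/+ sample. The brains had 30.5 to 36.2 per 1000 adult globin counts. Per 1000 globin counts with embryonic globins included, *Alas2* had 8.23 to 11.2 counts in the brains and 35.4 to 49.8 in the cerebellums. *Alas2* shares 311 of its 2403 exon bases with *Apex2* on the other strand, and the libraries were not stated to keep strand. *Apex2* itself did not pass the test in cerebellum (log2 fold change -0.00, SE 0.09, adjusted p = 0.986).

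**Figure D5:**
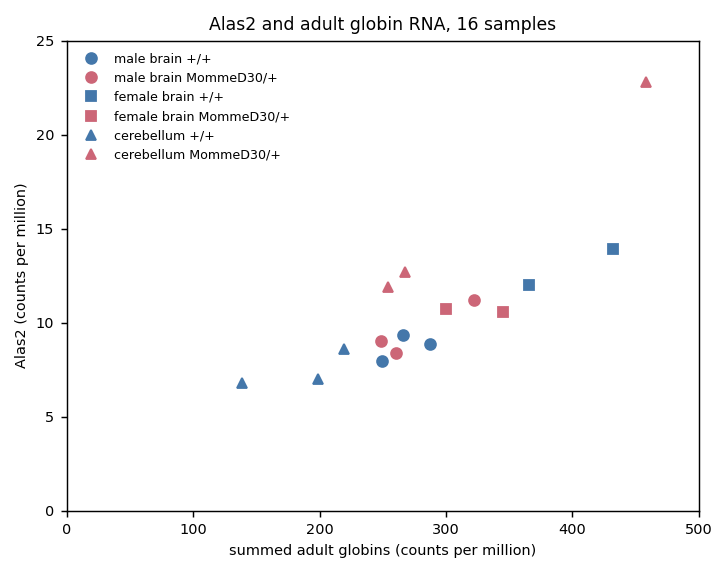
*Alas2* against the sum of the 4 adult globins, both in CPM, for the 16 samples, with male brains as circles, female brains as squares and cerebellums as triangles, *Wiz*+/+ in blue and *Wiz* MommeD30/+ in red. The second *Wiz* MommeD30/+ cerebellum lies alone at the upper right, with 458 CPM of adult globins and 22.8 CPM of *Alas2*.

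No gene of the other erythroid lists was called between genotypes in male brain, in female brain, over both sexes or in cerebellum, by edgeR or by DESeq2. In cerebellum, 10 of 10 heme synthesis genes, 6 of 12 red cell membrane genes and 10 of 14 erythroid maturation genes could be tested. An unadjusted p under 0.05 was given by edgeR to 1, 1 and 4 of them, beside 19.9% of all genes. The median log2 fold changes of these lists in cerebellum were -0.04, 0.01 and 0.02, against -0.00 over all genes. Of the 6 membrane genes tested there, 3 had a fold change above 1 and the rest did not. Among the 3, the exchanger *Slc4a1*, which is abundant in red cells, is named after its value was seen. It had 0.761 ± 0.113 (SD, n = 3) CPM in *Wiz*+/+ and 1.07 CPM in *Wiz* MommeD30/+ cerebellum (0.49, SE 0.24, adjusted p = 0.27 by edgeR), a low level, and was not called. Erythroid transcription factors (7 genes, of which 3 were tested) and the globin switching regulators *Bcl11a*, *Zbtb7a*, *Sox6* and *Myb* held no called gene in the cerebellum, and edgeR gave 1 gene of each list an unadjusted p under 0.05. Of the switching regulators, *Zbtb7a* was at -0.11 (SE 0.03, adjusted p = 0.037), under the fold threshold. Of 7 further globin superfamily genes, 2 were tested in cerebellum and neither was called, with 1 at an unadjusted p under 0.05.

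Markers of other cells of blood and vessel held no called gene in cerebellum. Summed endothelial markers (8 genes) had 177 to 186 CPM in *Wiz*+/+ and 176 to 192 CPM in *Wiz* MommeD30/+ cerebellums, platelet markers (6 genes) 6.71 to 8.09 and 6.87 to 7.30 CPM, lymphocyte markers (5 genes) 0.776 to 0.851 and 0.713 to 0.987 CPM, and microglia and macrophage markers (6 genes) 52.9 to 55.8 and 52.1 to 55.8 CPM. Neutrophil markers (7 genes), at 0.196 to 0.776 and 0.713 to 1.02 CPM, were too low to be tested, and *Elane* was at 0 in all 6 samples. None of the markers tested was called in cerebellum by edgeR or DESeq2. Other sums did differ without overlap in the same libraries. Embryonic brain markers had 284 to 308 CPM in *Wiz*+/+ and 260.3 to 269.9 CPM in *Wiz* MommeD30/+ cerebellums, heme synthesis genes 379.7 to 389 and 371 to 378 CPM, switching regulators 186 to 190.4 and 174 to 178 CPM, erythroid transcription factors 30.0 to 33.4 and 28.2 to 29.7 CPM, and the further globin superfamily genes 45.3 to 47.2 and 48.7 to 49.8 CPM. Of the 5 embryonic brain markers tested, 3 had an unadjusted p under 0.05 and none was called. The part of these sums in the globin result was not tested.

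The genotype effect in cerebellum was tested against that in male brain with a product term over the 12 male samples. None of the 5 genes with counts in both tissues passed, with adjusted p from 0.20 to 0.41, where 0.26% of all genes passed. All 5 had an unadjusted p under 0.05 by edgeR, beside 9.72% of all genes, and 4 by DESeq2, which called none. The largest difference was that of *Hbb-bt* (0.95, SE 0.34, adjusted p = 0.34), and *Alas2* (0.94, SE 0.27, adjusted p = 0.205) and *Hbb-bs* (0.85, SE 0.24, adjusted p = 0.20) followed. The same term with the 4 female brains in place of the male ones, added after the values had been seen, passed for none of the 5 either, with adjusted p from 0.11 to 0.28. All 5 had an unadjusted p under 0.05 by both tools, beside 10.9% of all genes by edgeR, of which 0.195% passed. A product term cannot be estimated for the embryonic globins, which the cerebellums lacked.

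Globin RNA also differed between male and female embryos, a comparison made after the values had been seen. With genotype in the model, 4 of the 8 genes were called higher in females, where 0.636% of all genes were called higher: *Hba-x* (log2 fold change 0.58, SE 0.13, adjusted p = 0.017), *Hba-a2* (0.53, SE 0.12, adjusted p = 0.017), *Hbb-y* (0.50, SE 0.12, adjusted p = 0.018) and *Hba-a1* (0.49, SE 0.09, adjusted p = 0.0096). *Hbb-bh1* was at 0.57 (SE 0.19, adjusted p = 0.066), *Hbb-bt* at 0.33 (SE 0.12, adjusted p = 0.082) and *Hbb-bs* at 0.17 (SE 0.10, adjusted p = 0.28), and *Alas2* at 0.36 (SE 0.10, adjusted p = 0.037) lay under the fold threshold. Without the first female *Wiz*+/+ brain 2 genes were called, and without other single brains 4 to 6. Platelet markers had 14.7 to 16.4 CPM in females and 12.4 to 14.2 in males, and microglia and macrophage markers 52.3 to 58.8 and 46.3 to 51.1 CPM, so these sums did not overlap either. Heme synthesis genes, at 269.48 to 285.01 and 260.27 to 269.44 CPM, were only just apart. The part of these sums in the result was not tested. No label gives a litter or a batch, so sex and anything shared by embryos of a sex cannot be told apart.

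The erythroid lists were also counted between ages. Over all genes, 69.3% were called in that comparison, 36.4% higher and 32.9% lower, and the lists are read against these shares. Between *Wiz*+/+ male brain and *Wiz*+/+ cerebellum, 5 of 8 tested membrane genes were called lower in cerebellum, among them *Slc4a1* at -2.63 (SE 0.25) and *Gypc*, a membrane glycoprotein, at -2.53 (SE 0.16). *Sptb* (4.49, SE 0.06) and *Ank1* (4.74, SE 0.07), which neurons also use in their membrane skeleton, were called higher. Of 10 heme synthesis genes, which all cells need, 7 were called higher and 1 lower, led by *Cpox* (1.45, SE 0.06) and *Fech* (1.33, SE 0.05). Of 11 tested erythroid maturation genes, 6 were called higher and 1 lower. The 3 tested erythroid transcription factors and the 2 tested further globin superfamily genes each held 1 called higher and 1 called lower. Of the switching regulators, *Bcl11a* (-3.98, SE 0.05), *Myb* (-3.43, SE 0.19) and *Sox6* (-2.25, SE 0.05) were called lower and *Zbtb7a* (2.70, SE 0.04) higher. *Bcl11a* and *Sox6* are known in neurons as well as in red cells, and no share of their change was assigned to blood. Endothelial markers summed to 300 to 317 CPM in the male *Wiz*+/+ brains and 177 to 186 CPM in the *Wiz*+/+ cerebellums.

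The genes most like the adult globins across samples were sought as a description. Over the 10 brains, centred on their sex mean, log2 CPM of *Hba-a1* followed the summed adult globins at Pearson's r = 0.94, *Hbb-bt* at 0.90, *Hbb-bs* at 0.80 and *Hba-a2* at 0.78, each of which is a part of that sum. Of the genes outside the sum *Alas2* was at 0.86, while *Hba-x* (0.46), *Hbb-y* (0.28) and *Hbb-bh1* (0.25) followed them less. The highest non-members were *Gm4258* (0.93), *Bves* (0.92), an unnamed gene (0.91), *Scmh1* (0.90) and *Kif1bp* (0.90). Over the 6 cerebellums *Alas2* reached 0.96, and *Pik3ca* (0.99), *Wdr3* (0.99), *Eif3j1* (0.99), *Il6st* (0.99) and *Senp6* (0.98) led the non-members of 15979 genes. These samples share genotype and depth differences, and with so few of them high values arise for many genes.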

How the data were processed

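PolyA RNA of 16 samples was sequenced as 100-base single-end reads. The authors mapped reads to mm10 with TopHat 2.0.11 and counted them over gene exons with htseq-count 0.6.1, and the values they deposited are raw counts per Ensembl gene, without normalization. The counting mode is not given in the sources used here. A read that maps to both genes of a near-identical pair is normally skipped by htseq-count, which lowers adult globin values. Symbols came from a gene table that matched 40254 of 41388 identifiers, the rest holding at most 0.171% of a sample's counts. *Ahsp* was not matched. Positions and exons came from GENCODE M21 and promoters from RefSeq.

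CPM values are counts scaled to the total of all gene counts. Each comparison was fitted on the samples it names, following the study's thresholds, with edgeR 4.0.16 in R 4.3.3 (TMM, filterByExpr with a minimum count of 10, quasi-likelihood test, Benjamini-Hochberg over all genes tested), since the first DESeq was not at hand. Each SE is the size of the log2 fold change divided by the root of its F statistic. DESeq2 1.42.0, its size factors, no low-count filter, library sizes without globins, the replicate number as a block, no fold threshold and each replicate left out were the alternatives. The planned comparisons were tested on simulated data with edgeR and DESeq2. The other alternatives and the fits added later were not. The test of sex, the product term with female brains and total-count scaling were added after the data were seen. Totals of 16386029 to 50459755 counts set the precision, and a count of 0 was taken to allow 3 counts. Replicates differed by more than sampling (chi-square per degree of freedom 2.11 to 11.2), so none was a repeated deposit.

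The rule named all 8 genes in every comparison and, from the fixed lists, the called genes, up to 5 a list; genes not named singly are given by range. Some genes that this rule names are not reported here. *Slc4a1* and *Zbtb7a* in cerebellum and the genes shown for neutrophils were named after their values were seen. The members and lists were chosen with earlier results of these data known. The 3 ChIP-seq samples were not used here. Tables were made with Python 3.11.15.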

Additional observations from a re-analysis of the deposited data

Results flagged for a closer look

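The genotype difference of the adult globins and *Alas2* pointed in opposite directions in cerebellum and in female E13.5 brain. Every *Wiz* MommeD30/+ cerebellum lay above every *Wiz*+/+ cerebellum, and both *Wiz* MommeD30/+ female brains lay below both *Wiz*+/+ female brains, for all 5 genes. Of all genes, 11.7% showed the first pattern and 17.3% the second, and the share that showed both was not computed. *Alas2* followed the summed adult globins at Pearson's r = 0.96 over the cerebellums, rank 38 among 15979 genes. That r includes the genotype difference itself. The 5 genes were measured in the same samples and are not read as 5 separate results. The difference between the log2 fold changes (cerebellum minus female brain) was 1.38 (SE 0.30, adjusted p = 0.11) for *Alas2*, 1.36 (SE 0.32, adjusted p = 0.13) for *Hbb-bs*, 1.25 (SE 0.41, adjusted p = 0.28) for *Hbb-bt*, 1.14 (SE 0.29, adjusted p = 0.16) for *Hba-a2* and 1.02 (SE 0.30, adjusted p = 0.22) for *Hba-a1*, by edgeR's quasi-likelihood test over 10 samples. None passed at 0.05 over all genes. Without the second *Wiz* MommeD30/+ cerebellum 1 of the 5 passed, where 21 genes passed in all. The cerebellums were male and adult, so tissue, age and sex cannot be told apart.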

How the results depend on the processing

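In cerebellum 4 genes were called, and 1 by DESeq2's Wald test. Leaving out single replicates gave 2 to 4 there (2 without the first *Wiz*+/+ sample), 0 to 1 in female brain, 2 to 6 for sex (2 without the first female *Wiz*+/+ brain) and 0 to 2 for genotype by tissue with female brains. Genotype by tissue in males called 4 genes with no low-count filter, and 0 otherwise. The block on replicate numbers called 5 in cerebellum, *Hbb-bt* included (log2 fold change 0.81, adjusted p = 0.0021), and none in either brain. DESeq2's size factors and no filter also gave 5. Residuals of same-numbered samples of both genotypes correlated at -0.147 to -0.022. With 2 or 3 pairs a comparison, this cannot show whether same-numbered samples shared a litter or a batch. With that block 3 genes in all were called in female brain in place of 19, and 13 for genotype by tissue in place of 45.

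The embryonic share was 51.5% and 56.3% (male *Wiz*+/+, *Wiz* MommeD30/+) and 53.9% and 58.3% (female) per unique stretch. Without length correction it was 72.7% in male *Wiz* MommeD30/+ and 70.9% and 74.5% in females.

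Directions of uncalled differences turned when single samples were left out. In male brain *Hba-a1* ran from -0.073 to 0.17, *Hba-a2* from -0.074 to 0.26, *Hbb-bs* from -0.049 to 0.068, *Hbb-bt* from -0.28 to 0.042, *Hba-x* from -0.19 to 0.23 and *Hbb-bh1* from -0.14 to 0.58. In female brain *Hbb-bh1* ran from -0.15 to 0.037. Over both sexes *Hba-a1* ran from -0.15 to 0.0086, *Hba-x* from -0.14 to 0.072, *Hbb-bh1* from -0.10 to 0.22 and *Alas2* from -0.14 to 0.028. For genotype by sex *Hba-x* ran from -0.29 to 0.12 and *Hbb-bh1* from -0.61 to 0.073. Between tissues *Alas2* ran from -0.10 to 0.071, and was 0.000514 with DESeq2's size factors. The cause was not tested in any of these.

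Counts over all genes moved too: no filter gave 175 in male brain (31), 211 in cerebellum (133), 101 over both sexes (61) and 416 for genotype by tissue (45). DESeq2 gave 32 in female brain (19), 75 in cerebellum, 122 for genotype by tissue and 152 for that with female brains (34). Without the fold threshold 840 genes were called in cerebellum. Leaving out single samples gave 20 to 117 in male brain, 0 to 261 in female brain and 70 to 153 in cerebellum. Library sizes without globin reads left the counts of called genes in male brain, female brain, both sexes and cerebellum as they were, and were not used in the other comparisons. Depth limits *Hba-a2* and *Hbb-bh1* most, which had the fewest counts.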

Other observations

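Neutrophil markers were low in E13.5 brain, and none was called between genotypes by edgeR. The study itself, which used the first DESeq, did list *S100a8* as significantly higher in female *Wiz* MommeD30/+ brains. The granule genes *S100a8* and *S100a9*, whose products form calprotectin, and *Ltf*, which encodes lactoferrin, had log2 fold changes over both sexes of 1.57 (SE 0.38, adjusted p = 0.12), 1.55 (SE 0.39, adjusted p = 0.14) and 2.24 (SE 0.47, adjusted p = 0.061) by edgeR. *Ngp* was at 1.56 (SE 0.53, adjusted p = 0.27) and *Mpo*, the only one of the 5 tested genes below 0, at -0.30 (SE 0.57, adjusted p = 0.88). Of the 5, 4 had an unadjusted p under 0.05, beside 11.8% of all genes. DESeq2 called 3 of them, among 72 genes in all. The summed level of the 7 neutrophil markers was 0.931 to 2.07 CPM in male *Wiz*+/+ brains, 0.936 to 3.84 in male *Wiz* MommeD30/+ brains, 0.505 to 1.39 in female *Wiz*+/+ brains and 3.16 to 4.10 in female *Wiz* MommeD30/+ brains. The female genotypes did not overlap and the male ones did. In female brain all 8 globin and *Alas2* fold changes pointed the other way. Platelet markers had 12.7 to 13.5 and 12.4 to 14.2 CPM in males and 15.8 to 16.4 and 14.7 to 14.8 CPM in females.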
